A study of Rattus norvegicus with 6 samples.

Results

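The genes described here are 10 genes of T cells and of cytotoxic lymphocytes, measured in rat mammary tumors. They are the CD3 chains Cd3d, Cd3e and Cd3g, the coreceptors Cd4, Cd8a and Cd8b, the cytotoxic granule genes Gzmb, Prf1 and Nkg7, and the regulatory factor Foxp3. They were chosen by gene symbol, and 11 of the 32545 rows of the deposited table carried one of these symbols, since Gzmb stood on 2 rows. Female Sprague-Dawley rats had received N-methyl-N-nitrosourea (MNU), an alkylating carcinogen that induces mammary tumors, by injection into the peritoneum at 21 days of age and a dose of 50 mg/kg. Treatment began 1 week later and was given 5 times a week for 10 weeks, as 100 µL of corn oil by gavage in the vehicle group or as 50 mg/kg of diallyl trisulfide (DATS), a garlic sulfur compound, in corn oil in the DATS group. The carcinogen and the corn oil were thus common to both groups of 3 tumors, and it is not stated whether each tumor grew in a different rat. The p-values below measure the spread between these tumors, which may in part be technical.

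T cells recognise antigen through a receptor whose signal is carried into the cell by the CD3 chains, so that CD3 transcripts mark T cells of any kind. CD4 marks helper and regulatory T cells, CD8 marks cytotoxic T cells, and FOXP3 is the transcription factor that defines regulatory T cells, which restrain the others. Cytotoxic T cells and natural killer (NK) cells kill by releasing perforin, which opens the target membrane, and granzymes, proteases that enter through it. In the rat, monocytes and macrophages also carry CD4 and many NK cells carry CD8 alpha, so neither coreceptor is restricted to T cells. In tumors of the mammary gland these cells lie among epithelium and stroma, and the RNA of a whole tumor pools them all. Fewer cells of a type and less RNA per cell cannot be told apart in such samples.

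The unit throughout is FPKM, fragments per kilobase of gene scaled for depth, as deposited. Whole reads recovered from the FPKM steps came to 13531587 to 16868678 per tumor. The tumors carried the epithelial RNA that their label implies, with the luminal keratins Krt8 at 467 to 1320 and Krt18 at 493 to 1000 FPKM. Vehicle tumor 1 stood apart by skeletal muscle RNA. The muscle genes Acta1 and Mylpf were at 677 and 194 FPKM there. In the other 5 tumors Acta1 was at 0.2 to 2.26 and Mylpf at 11.2 to 28.0 FPKM. Vehicle tumor 2 stood apart by leukocyte RNA, with 8 pan-leukocyte markers summing to 1420 FPKM there, 367 and 443 in vehicle tumors 1 and 3, and 382 to 823 in the DATS tumors.

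The 3 CD3 genes are neighbours on rat chromosome 8, and their levels moved together across the tumors. Their promoter windows are shown for that reason, beside those of Prf1 and Gzmb, whose products act together but whose levels did not follow each other. The windows run from 250 bases before to 50 bases after the annotated start and come from RefSeq on assembly GRCr8, which held 8 of the 10 genes. Capitals mark matches on either strand to TGTGGT (a RUNX core), TGACGT (part of the cyclic AMP response element) or AGGAAG (an ETS motif), and neighbouring or overlapping matches run together.
Cd3g, chr8:54183869-54184168, minus strand: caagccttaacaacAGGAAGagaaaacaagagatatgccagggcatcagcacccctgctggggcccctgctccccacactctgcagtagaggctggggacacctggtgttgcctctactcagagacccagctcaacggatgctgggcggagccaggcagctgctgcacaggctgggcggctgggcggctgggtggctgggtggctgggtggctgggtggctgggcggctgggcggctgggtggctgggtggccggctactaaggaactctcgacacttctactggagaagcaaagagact
Cd3d, chr8:54185269-54185568, plus strand: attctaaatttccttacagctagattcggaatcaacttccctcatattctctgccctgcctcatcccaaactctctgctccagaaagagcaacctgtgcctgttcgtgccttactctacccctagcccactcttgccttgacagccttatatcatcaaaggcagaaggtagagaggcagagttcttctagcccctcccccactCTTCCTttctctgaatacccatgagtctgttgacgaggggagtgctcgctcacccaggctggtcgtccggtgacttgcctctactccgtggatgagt
Cd3e, chr8:54211721-54212020, minus strand: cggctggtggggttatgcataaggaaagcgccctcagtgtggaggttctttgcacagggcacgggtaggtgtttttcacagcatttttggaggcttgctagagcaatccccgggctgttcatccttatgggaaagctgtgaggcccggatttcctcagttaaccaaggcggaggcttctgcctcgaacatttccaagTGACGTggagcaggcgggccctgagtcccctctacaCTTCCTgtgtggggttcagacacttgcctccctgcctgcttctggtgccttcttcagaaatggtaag
Prf1, chr20:29788790-29789089, plus strand: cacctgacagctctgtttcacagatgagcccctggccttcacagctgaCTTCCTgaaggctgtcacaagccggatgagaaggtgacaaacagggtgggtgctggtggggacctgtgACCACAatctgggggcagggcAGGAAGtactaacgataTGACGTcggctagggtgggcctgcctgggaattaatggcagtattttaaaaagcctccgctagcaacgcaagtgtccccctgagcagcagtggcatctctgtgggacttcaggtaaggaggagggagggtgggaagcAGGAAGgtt
Gzmb, chr15:34462420-34462719, minus strand: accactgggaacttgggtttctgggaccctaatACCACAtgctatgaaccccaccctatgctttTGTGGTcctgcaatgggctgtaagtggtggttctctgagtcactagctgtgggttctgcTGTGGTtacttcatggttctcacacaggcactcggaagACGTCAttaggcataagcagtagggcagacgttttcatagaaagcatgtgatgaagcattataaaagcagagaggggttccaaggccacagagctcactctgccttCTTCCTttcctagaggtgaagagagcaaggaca

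AGGAAG was found in the windows of 6 of the 8 genes, the 3 CD3 genes, Gzmb, Prf1 and Nkg7, and in 34.5% of all 33469 promoter windows of the table. TGTGGT was found in Gzmb, at 3 places, and in Prf1 and Nkg7, and in 17.3% of all windows. TGACGT was found in Cd3e, Gzmb and Prf1, and in 7.94% of all windows. The windows of Cd8a and Foxp3 held none of these motifs. These matches describe the letters of the windows and were not tied to the expression values.

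T cell transcripts were present in all 6 tumors, and their amount varied more among the tumors of a group than between the groups. Vehicle tumor 2 was the highest tumor for 9 of the 10 genes, the exception being Prf1, and 21.0% of all 13631 genes tested were highest in that tumor. DATS tumors 2 and 3 each were among the 3 highest tumors for 9 genes, while vehicle tumor 1 and DATS tumor 1 were among them for none. DATS tumor 1 was the lowest tumor for 6 genes. Each group thus held both rich and poor tumors, and the groups overlapped for all 10 genes tested, where 12.2% of all genes tested had groups that did not overlap.

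**Figure D1:**
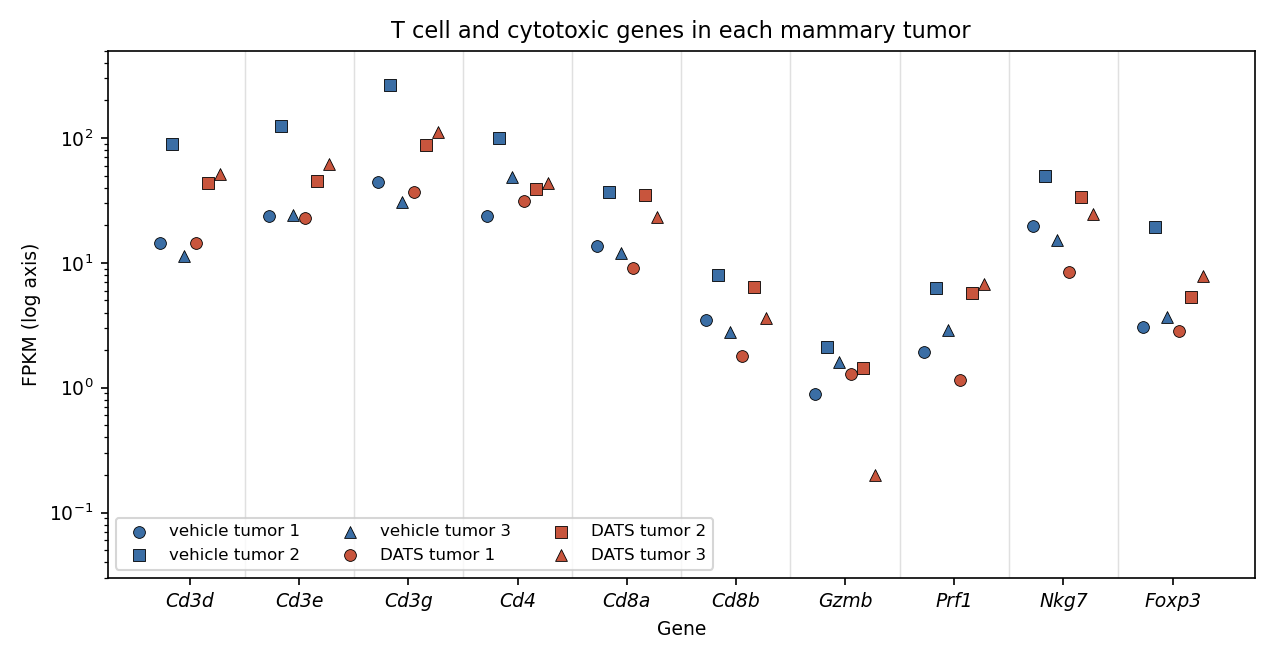
FPKM of the 10 genes (log axis) in each of the 6 tumors, with vehicle tumors in blue, DATS tumors in red and the symbol giving the tumor number. Vehicle tumor 2 lies highest for every gene but Prf1, and Gzmb in DATS tumor 3, at 0.199 FPKM, is the lowest point shown.

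No gene of the group differed between DATS and vehicle tumors by limma on log2(FPKM + 1). Of the 10 genes tested 0 had a Benjamini-Hochberg adjusted p under 0.05 (lowest 0.874, for Gzmb), and the same fit called 0.0% of all 13631 genes. At an unadjusted p under 0.05 there were again 0 of the 10, against 5.85% of all genes tested, and the lowest was 0.328. The log2 differences, DATS minus vehicle, ran from -0.40 for Gzmb to 0.36 for Cd3d with a median of -0.14, against a median of 0.00 over all genes tested. They were above 0 for 3 genes and below 0 for 7, and 49.2% and 50.8% of all genes tested lay on these sides. The 95% confidence intervals reached 0.91 to 2.04 log2 units to either side, whereas the median over all genes tested was 0.57, so that large differences in T cell content in either direction lay within them. The FPKM totals were 566304 to 656017 in the vehicle tumors and higher in every DATS tumor, at 662528 to 710096. After rescaling to equal totals the log2 differences of all 10 genes were lower, with Cd3d at 0.19, Prf1 at 0.02 and Cd8a at -0.07.

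**Figure D2:**
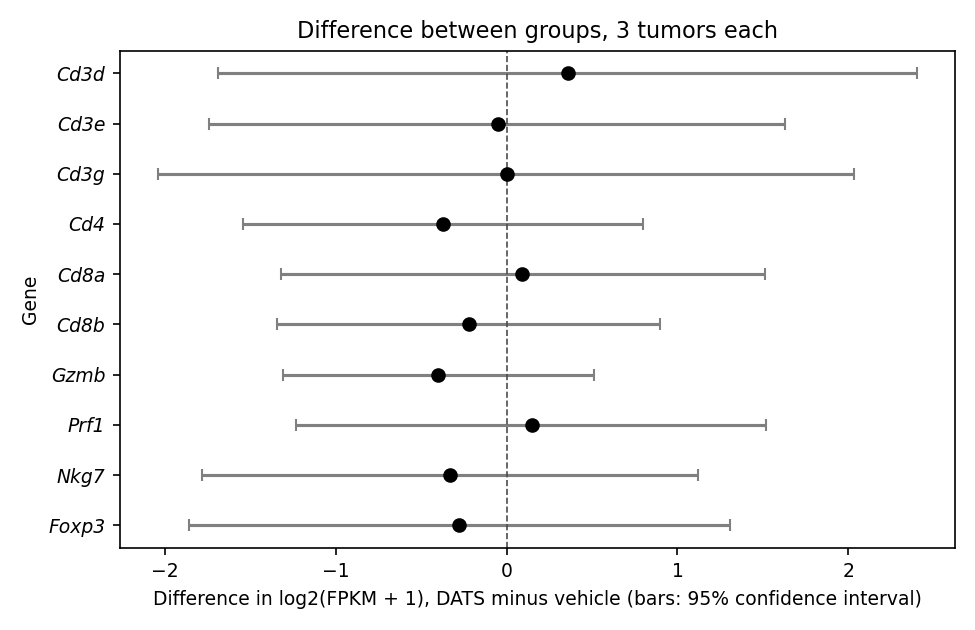
Difference in log2(FPKM + 1) between 3 DATS and 3 vehicle tumors for each gene (points), with its 95% confidence interval from limma (bars) and the dashed line at no difference. Every interval includes 0, the narrowest being that of Gzmb, from -1.31 to 0.51.

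The CD3 chains gave the clearest view of total T cell RNA. Cd3e, the epsilon chain that pairs with both of the others, was at 23.6, 124 and 24.2 FPKM in vehicle tumors 1, 2 and 3 and at 22.9, 45.4 and 61.4 in DATS tumors 1, 2 and 3. Cd3g, the gamma chain, was at 44.4, 267 and 30.5 FPKM in the vehicle tumors and at 37.2, 87.6 and 112 in the DATS tumors. Cd3d, the delta chain, was at 14.3, 89.5 and 11.3 FPKM in the vehicle and 14.3, 43.4 and 51.7 in the DATS tumors. For each chain vehicle tumor 2 came first, followed by DATS tumor 3 and then DATS tumor 2, with the other 3 tumors well below and close to one another. The highest tumor exceeded the lowest by 5.41-fold for Cd3e, 7.92-fold for Cd3d and 8.75-fold for Cd3g. These values rest on at least 118 recovered reads per tumor.

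Between the groups the CD3 chains differed by much less than they did within them. The mean of Cd3e was 43.2 ± 19.4 FPKM with DATS and 57.2 ± 57.7 with vehicle (SD, n = 3), and the log2 difference was -0.05 ± 0.70 (SE). Cd3d and Cd3g had log2 differences of 0.36 ± 0.85 and 0.00 ± 0.85 (SE), and the adjusted p-values of the 3 chains were 0.957 to 0.999 (limma). The SD of log2(FPKM + 1) within groups was 1.07 for Cd3e, 1.31 for Cd3d and 1.3 for Cd3g, against a median of 0.29 over all genes tested. Single tumors set the sign and size. Without vehicle tumor 2 the log2 differences were 1.26, 0.72 and 0.94 for Cd3d, Cd3e and Cd3g (adjusted p = 0.979 each). Without vehicle tumor 3 those of Cd3d and Cd3g were -0.18 and -0.60, and without vehicle tumor 1 those of Cd3d and Cd3e were -0.02 and -0.45. Without DATS tumor 1 those of Cd3e and Cd3g were 0.34 and 0.46.

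The CD3 genes were also set against a gene of all leukocytes. The ratio of Cd3e to Ptprc, which encodes the pan-leukocyte phosphatase CD45, was 1.78, 1.77 and 1.39 in the vehicle tumors, and it was 1.63, 1.87 and 2.31 in the DATS tumors. It spanned 1.67-fold, while Ptprc itself spanned 5.27-fold, from 13.3 to 70.0 FPKM. The groups overlapped for this ratio (two-sided exact permutation p = 0.4, adjusted p = 0.76 over the 13 ratios tested). With 3 tumors against 3 the smallest p that this test can give is 0.1. With the other chains the spread was wider, as the ratio to Ptprc spanned 3.02-fold for Cd3d, from 0.646 in vehicle tumor 3 to 1.95 in DATS tumor 3, and 2.41-fold for Cd3g. These and the other ratios with Cd3d or Cd3g were added after the Cd3e ratios had been seen.

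Cd4, the helper coreceptor, followed the CD3 chains only in part. It was at 23.8, 100 and 48.5 FPKM in vehicle tumors 1, 2 and 3 and at 31.3, 39.4 and 43.3 in DATS tumors 1, 2 and 3. Vehicle tumor 3, which was low in CD3, was the second highest tumor for Cd4, and the 3 DATS tumors lay close together. The log2 difference was -0.37 ± 0.49 (SE; limma adjusted p = 0.911), and it was 0.14 without vehicle tumor 2. Per Cd3e, Cd4 was 1.01, 0.81 and 2.0 in the vehicle and 1.37, 0.869 and 0.705 in the DATS tumors, with overlapping groups (exact permutation p = 0.6).

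Macrophage markers were measured beside Cd4 because rat macrophages carry it. Csf1r, the receptor of the macrophage growth factor CSF1, was at 28.6, 81.9 and 61.3 FPKM in the vehicle and 40.6, 38.5 and 46.6 in the DATS tumors. Like Cd4, Csf1r, which was added after values were seen, was highest in vehicle tumor 2 and second in vehicle tumor 3. Some other macrophage markers shared these places, but Lyz2 and C1qc, those of highest mean, did not. The ratio of Cd4 to Csf1r spanned 1.59-fold over the 6 tumors, from 0.771 to 1.23, and that of Cd4 to Cd3e spanned 2.84-fold (5.13-fold to Cd3d and 4.23-fold to Cd3g). The 14 macrophage markers as a whole, none of them at 0 in any tumor, had another order, with sums of 1280, 3230 and 1820 FPKM in vehicle tumors 1, 2 and 3 and of 1570, 1980 and 2710 in DATS tumors 1, 2 and 3. Vehicle tumor 3 lay below DATS tumors 2 and 3 in that sum. The part of macrophages in the Cd4 values was not tested.

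Helper cytokines themselves were low, with Il2, Il4, Il5, Il13, Il17a, Il21 and Il22 each at 1.46 FPKM or less in any tumor. Of 15 helper cytokine and lineage genes matched, 4 had a mean of 1 FPKM or more, and 1 of them was above and 3 were below 0 in log2 difference (median -0.28, 0 called). Gata3, which directs type 2 helper cells but is also a factor of luminal mammary epithelium, was at 35.5 to 81.1 FPKM in vehicle and 59.0 to 74.4 in DATS tumors. Bcl6, a factor of follicular helper cells that other cells also express, was at 13.9, 21.6 and 18.4 FPKM in the vehicle and 11.6, 14.3 and 9.04 in the DATS tumors (log2 difference -0.58 ± 0.23, SE; unadjusted p = 0.0411 and adjusted p = 0.819, limma). The groups overlapped for both genes.

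Cd8a and Cd8b, the chains of the cytotoxic coreceptor, were highest in vehicle tumor 2 and second in DATS tumor 2. Cd8a was at 13.6, 37.0 and 11.9 FPKM in the vehicle tumors and at 9.07, 34.7 and 23.3 in the DATS tumors. Vehicle tumor 2 exceeded DATS tumor 2 by only 1.07-fold for Cd8a, where it exceeded the second highest tumor by 2.02-fold for Cd3e. Cd8b was at 3.48, 7.98 and 2.77 FPKM in the vehicle and 1.80, 6.40 and 3.62 in the DATS tumors. The log2 differences were 0.09 ± 0.59 for Cd8a and -0.22 ± 0.47 for Cd8b (SE; limma adjusted p = 0.986 and 0.949). That of Cd8a was -0.30 without DATS tumor 2, -0.11 and -0.19 without vehicle tumors 1 and 3, -0.02 without DATS tumor 3 and -0.07 after rescaling to equal totals. That of Cd8b moved to 0.16 when vehicle tumor 2 was left out and to 0.13 when DATS tumor 1 was.

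Set against Cd3e, the chains of the cytotoxic coreceptor did not rank the tumors alike. The ratio of Cd8a to Cd3e was 0.575, 0.298 and 0.493 in the vehicle and 0.396, 0.765 and 0.379 in the DATS tumors (exact permutation p = 0.7). The tumor richest in CD3 RNA, vehicle tumor 2, had the lowest Cd8a per Cd3e, and also the lowest per Cd3d and per Cd3g. The ratio of Cd8b to Cd3e was 0.147, 0.0645 and 0.114 in the vehicle and 0.0787, 0.141 and 0.0589 in the DATS tumors (exact permutation p = 0.7), highest in vehicle tumor 1 and lowest in DATS tumor 3. Against Cd3d the log2 difference of Cd8a turned to -0.29 from 0.15 against Cd3e. Cd8a per Cd4 ranged from 0.246 in vehicle tumor 3 to 0.88 in DATS tumor 2, again with overlapping groups (exact permutation p = 0.5). The ratio of Cd8b to Cd8a was 0.256, 0.216 and 0.232 in the vehicle and 0.199, 0.185 and 0.156 in the DATS tumors. Every DATS tumor lay below the vehicle tumors for it (log2 difference -0.39), with a two-sided exact permutation p of 0.1, the smallest possible, and an adjusted p of 0.65 over the 13 ratios.

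Nkg7, a membrane protein of the granules of cytotoxic T and NK cells, was at 19.8, 49.2 and 15.2 FPKM in the vehicle tumors and at 8.52, 34.0 and 24.5 in the DATS tumors. Its order of tumors was that of Cd8a and Cd8b, from vehicle tumor 2 down to DATS tumor 1. The log2 difference was -0.33 ± 0.60 (SE; limma adjusted p = 0.936), and 0.15 without vehicle tumor 2 or 0.22 without DATS tumor 1. Per Cd3e, Nkg7 was 0.837, 0.397 and 0.628 in the vehicle and 0.372, 0.749 and 0.398 in the DATS tumors.

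Prf1, which encodes perforin, was the gene of the group with its highest value in a DATS tumor. It was at 1.92, 6.24 and 2.91 FPKM in vehicle tumors 1, 2 and 3 and at 1.16, 5.71 and 6.71 in DATS tumors 1, 2 and 3. The 3 tumors rich in CD3 RNA were the 3 highest, on 194 to 235 recovered reads each, and DATS tumor 1 was the lowest on 41. DATS tumor 3 exceeded vehicle tumor 2 by 1.07-fold, on 235 against 232 reads, which is within counting error. The log2 difference was 0.15 ± 0.57 (SE; limma adjusted p = 0.977), and -0.14, -0.09 and -0.19 without vehicle tumor 1, DATS tumor 2 and DATS tumor 3.

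Gzmb, granzyme B, was low everywhere and did not follow perforin. On its main row it was at 0.891, 2.13 and 1.60 FPKM in the vehicle tumors and at 1.29, 1.44 and 0.199 in the DATS tumors. DATS tumor 3, the highest tumor for Prf1, was the lowest for Gzmb, with 6 recovered reads (95% exact Poisson interval 2.2 to 13.1) against 34 to 68 in the other tumors. Such an interval covers counting error only. The ratio of Gzmb to Prf1 was 0.465, 0.341 and 0.549 in the vehicle and 1.11, 0.252 and 0.0297 in the DATS tumors, a span of 37.3-fold. The log2 difference of Gzmb was -0.40 ± 0.38 (SE; limma adjusted p = 0.874), and -0.07 without DATS tumor 3. With a pseudocount of 0.1 it was -0.85 and by limma-voom on recovered reads -0.96 (adjusted p = 0.873 and 0.882).

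The second Gzmb row did not pass the filter. It was at 0.184, 0.0439 and 0.179 FPKM in the vehicle tumors, on 5, 1 and 4 reads, and at 0.371 FPKM on 8 reads in DATS tumor 1. In DATS tumors 2 and 3 it had 0 reads, which at this depth does not show that it was absent. With both rows summed the log2 difference was -0.41, an alternative added after seeing the data. The rat has several closely related granzyme genes and the counting may have divided their reads, so the level of Gzmb is uncertain.

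Other effector genes were taken from a list of 24 NK and cytotoxic genes, of which 22 were matched and 17 tested. None was called, 1 had an unadjusted p under 0.05, 9 lay above and 8 below 0 (median log2 difference 0.01), and 10 of the 17 were highest in vehicle tumor 2. The gene past the unadjusted threshold was Gzma, granzyme A, at 3.64, 7.62 and 0.699 FPKM in the vehicle and 13.2, 5.92 and 19.4 in the DATS tumors (log2 difference 1.63 ± 0.66, SE; unadjusted p = 0.0465 and adjusted p = 0.819, limma). DATS tumor 2 lay below vehicle tumor 2, so the groups overlapped. In DATS tumor 3, where Gzmb was at its lowest, Gzma was at its highest. Faslg, the death ligand of cytotoxic cells, was at 1.19 to 3.22 FPKM in vehicle and 2.12 to 5.16 in DATS tumors (log2 difference 0.64 ± 0.36, SE). Cst7, an inhibitor of granule proteases, was at 14.7 to 72.6 and 21.5 to 43.9 FPKM. Serpinb9, which protects cells from granzyme B, had the highest mean of the list and was at 55.4, 166 and 244 FPKM in the vehicle and 98.6, 163 and 145 in the DATS tumors. Ncr1, a receptor that marks NK cells, lay below the filter, at 0.350 to 1.11 FPKM.

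Foxp3 tracked the CD3 genes more closely than any other member outside them. It was at 3.06, 19.2 and 3.66 FPKM in vehicle tumors 1, 2 and 3 and at 2.84, 5.34 and 7.78 in DATS tumors 1, 2 and 3. Vehicle tumor 2 exceeded the second highest tumor, DATS tumor 3, by 2.46-fold. The mean was 5.32 ± 2.47 FPKM with DATS and 8.62 ± 9.12 with vehicle (SD, n = 3), and the log2 difference was -0.28 ± 0.66 (SE; limma adjusted p = 0.957). Without vehicle tumor 2 it was 0.46, and without DATS tumor 1 it was 0.04.

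Per Cd3e, Foxp3 varied less than the other genes, while Cd3e itself spanned 5.41-fold. The ratio of Foxp3 to Cd3e was 0.129, 0.155 and 0.151 in the vehicle tumors, and it was 0.124, 0.118 and 0.127 in the DATS tumors, a span of 1.31-fold. The corresponding spans were 2.84-fold for Cd4, 2.56-fold for Cd8a, 2.5-fold for Cd8b, 2.25-fold for Nkg7, 2.49-fold for Prf1 and 20.3-fold for Gzmb. All 3 DATS tumors lay below the 3 vehicle tumors for Foxp3 per Cd3e, at 0.123 ± 0.00459 against 0.145 ± 0.0137 (SD, n = 3). The exact permutation p was 0.1, the smallest that 3 against 3 can give, and 0.65 after adjustment over the 13 ratios. Groups did not overlap for 2 of these ratios. They did not overlap for 12.2% of the single genes tested, and the share among ratios of other genes was not computed. The 7 ratios to Cd3e share their denominator. The difference kept its sign without each tumor in turn, at -0.32 to -0.19 on the log2 scale. Both the separation and the narrow span depended on the chain. Per Cd3g, Foxp3 was 0.0688, 0.0718 and 0.12 in the vehicle and 0.0762, 0.0609 and 0.0698 in the DATS tumors, with overlapping groups, a span of 1.98-fold and an exact permutation p of 0.5. Per Cd3d it spanned 2.63-fold, and the DATS tumors, at 0.123 to 0.199, lay below the vehicle tumors, at 0.213 to 0.324. Cd8a per Cd3d spanned less, 2.56-fold, and Cd4, Cd8b, Nkg7, Prf1 and Gzmb per Cd3d spanned more, 2.92-fold to 36.7-fold. Foxp3 per Cd8a ranged from 0.154 in DATS tumor 2 to 0.518 in vehicle tumor 2 (exact permutation p = 0.6).

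**Figure D3:**
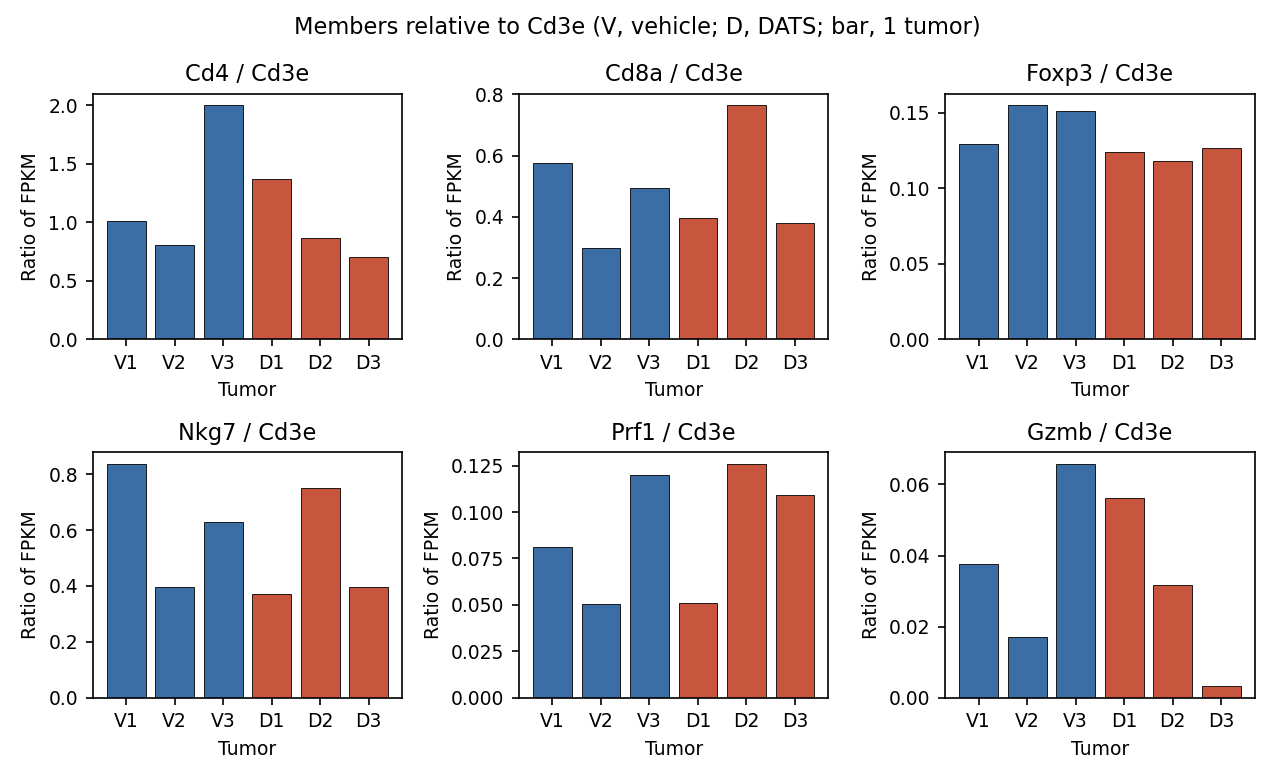
Ratio of the FPKM of 6 genes to that of Cd3e in each tumor (bars; vehicle tumors V1 to V3 in blue, DATS tumors D1 to D3 in red; each vertical axis starts at 0). Foxp3 per Cd3e stays between 0.118 and 0.155, whereas Cd4 and Cd8a per Cd3e peak in vehicle tumor 3 and DATS tumor 2.

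Genes of regulatory T cells and of immune checkpoints, the receptors and ligands that dampen T cell responses, were read from a list of 19. Of 14 tested, 0 were called, 2 lay above and 12 below 0 (median log2 difference -0.15), and 13 were highest in vehicle tumor 2. Tnfrsf4 and Tnfrsf18, the costimulatory receptors OX40 and GITR that regulatory T cells carry, were at 97.4 and 65.0 FPKM in vehicle tumor 2 and at up to 43.5 and 37.0 in the other tumors, both in DATS tumor 3. Icos, another costimulatory receptor, was at 4.21, 27.6 and 4.64 FPKM in the vehicle and 2.47, 6.93 and 7.78 in the DATS tumors. Cd274, which encodes the checkpoint ligand PD-L1, was the exception among them. It was at 5.2, 10.1 and 11.9 FPKM in the vehicle and 4.38, 2.98 and 3.15 in the DATS tumors, which all lay below. Its log2 difference was -1.11 ± 0.31 (SE), with an unadjusted p of 0.0104 and an adjusted p of 0.819 (limma), so it was not called. Pdcd1, the receptor of that ligand, had a mean of 0.109 FPKM over the 6 tumors and was not tested.

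The remaining T cell genes gave the same picture of tumors. All 22 T cell receptor and signaling genes were tested, 0 were called, 6 lay above and 16 below 0 (median log2 difference -0.09), and 18 were highest in vehicle tumor 2. Their summed level was 175 to 550 FPKM in vehicle and 143 to 320 in DATS tumors. Lck, the kinase that starts receptor signaling, was at 22.7, 79.7 and 18.4 FPKM in the vehicle and 17.8, 38.2 and 46.6 in the DATS tumors. Lat, the adaptor on which the signal is assembled, was at 23.8, 106 and 26.1 FPKM in the vehicle and 20.3, 48.9 and 60.9 in the DATS tumors. Both repeated the order of Cd3e for the 3 highest tumors. Il7r, the interleukin 7 receptor of naive and memory cells, was at 12.6 FPKM in vehicle tumor 2 and at 1.16 to 1.76 in the other tumors. Its log2 difference was -0.82 ± 0.68 (SE; adjusted p = 0.861, limma).

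Chemokines that draw T cells into tissue, with their receptors, formed a list of 14, of which 13 were tested and 0 called. The log2 difference lay above 0 for 3 and below 0 for 10 (median -0.27). Cxcl9, a chemokine induced by interferon gamma that attracts effector T cells, was at 66.4, 153 and 67.5 FPKM in the vehicle and 31.1, 99.5 and 116 in the DATS tumors. Its 3 highest tumors were those of the CD3 genes. Cxcl13, which attracts B cells and follicular helper cells, was at 251 FPKM in vehicle tumor 2 and at 8.92 to 55.9 in the other tumors. Xcl1, a chemokine made by cytotoxic cells, was at 4.07, 8.37 and 4.13 FPKM in the vehicle and 3.99, 18.9 and 13.9 in the DATS tumors (log2 difference 0.87 ± 0.55, SE). Cxcl16 had the highest mean of the list, at 107 to 200 FPKM in vehicle and 126 to 152 in DATS tumors. The class I antigen processing list, which supplies the peptides that CD8 T cells read, had 9 of 12 rows tested above 0 (median 0.15, 0 called), with B2m, the light chain of class I molecules, at 1660 to 3140 FPKM in vehicle and 2220 to 2730 in DATS tumors.

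Genes with the most similar profile to the CD3 genes were found by the root mean square difference between centred log2(FPKM + 1) profiles over the 6 tumors, divided by the SD of the mean CD3 profile. The median of this distance was 1.04 over the 13621 tested genes outside the group. The 10 nearest genes lay at 0.13 to 0.19. They were AC142181.1, AABR07044173.1, Gimap7, Il2ra, Ctla4, F10, Fam26f, Acap1, Ramp1 and Tnfrsf18. Il2ra, the high-affinity interleukin 2 receptor chain, was at 8.16, 50.7 and 6.15 FPKM in the vehicle and 5.49, 15.5 and 19.5 in the DATS tumors. Ctla4, an inhibitory receptor of activated and regulatory T cells, was at 2.47, 16.9 and 1.32 FPKM and at 1.29, 4.84 and 7.22. Within the group, Foxp3 lay at 0.31, Cd8a at 0.47, Nkg7 at 0.51, Prf1 at 0.56, Cd8b at 0.61, Cd4 at 0.66 and Gzmb at 1.06.

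**Figure D4:**
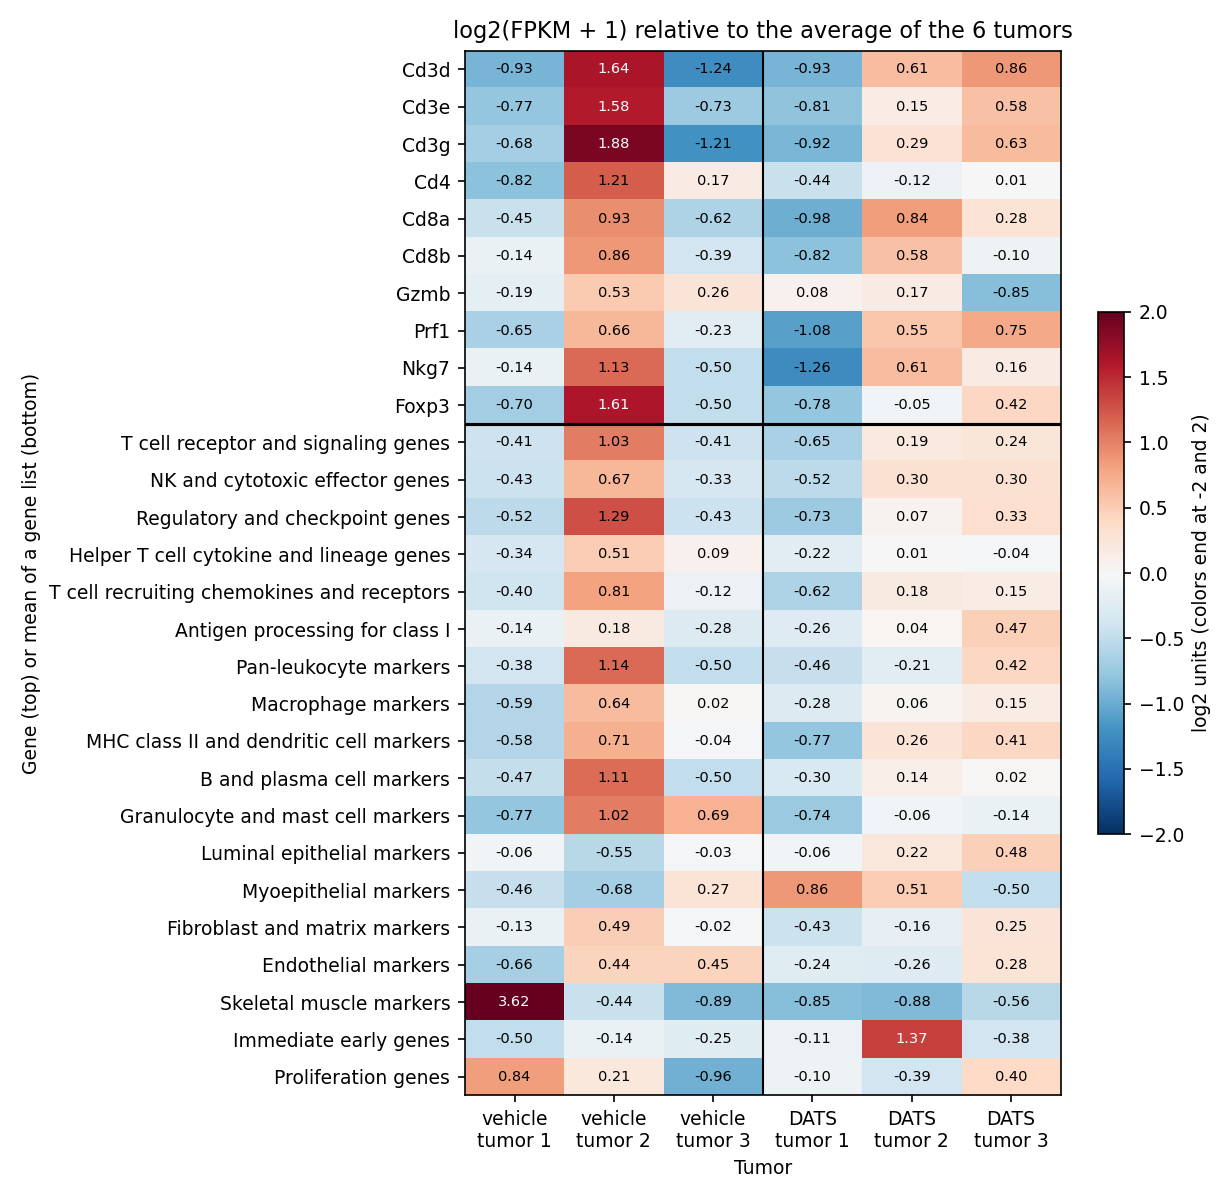
Level of each gene (top) and mean level of the tested genes of each list (bottom) in each tumor, as log2(FPKM + 1) relative to the average of the 6 tumors; red is above and blue below that average, and colors end at -2 and 2. Vehicle tumor 2 is high in the T cell, B and plasma cell, macrophage, and granulocyte and mast cell lists. It is also above the average in the fibroblast and endothelial lists, at 0.49 and 0.44. Vehicle tumor 1 stands out for skeletal muscle, at 3.62, in a list where Dbi was matched in place of Ttn.

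Vehicle tumor 2, the richest in CD3 RNA, was also high in RNA of other immune cells, but not every list ranked the other tumors as the CD3 genes did. B and plasma cell markers summed to 98.4 FPKM in vehicle tumor 2 and to 32.6 to 46.5 in the other tumors, the lowest being DATS tumor 3, second for CD3, with Igj, the joining chain of secreted antibody, at 65.7 and 16.9 to 39.3 FPKM and Cd79a, of the B cell receptor, at 6.82 and 0.409 to 3.76. MHC class II and dendritic cell markers, Cd74 and RT1-Da foremost, summed to 7280 FPKM in that tumor, 2680 and 3420 in the other vehicle tumors and 2900 to 5460 in the DATS tumors. This sum ranked the tumors as Cd3e did for the highest 3. Cd74 made up most of it, at 5790 FPKM in vehicle tumor 2, and not every gene of the list had that order. Of the 9 genes tested, 5 were highest in vehicle tumor 2. Granulocyte and mast cell markers summed to 739 FPKM in vehicle tumor 2, 150 and 604 in vehicle tumors 1 and 3, and 194 to 420 in the DATS tumors. Of their mast cell proteases Cpa3 and Tpsb2 were highest in vehicle tumor 2, at 211 and 178 FPKM, and Cma1 in DATS tumor 2, at 94.6. Luminal epithelial markers had their lowest sum in vehicle tumor 2, at 2120 FPKM, with 2890 and 2700 in vehicle tumors 1 and 3, and their highest in DATS tumors 3 and 2, at 4560 and 3340, which came next to vehicle tumor 2 in CD3 RNA. Because mammary fat holds lymph nodes, genes of lymph node stroma and follicles were also read. The 8 genes matched summed to 271 FPKM in vehicle tumor 2, 251 of it from Cxcl13, to 275 in DATS tumor 1 and to 66.0 to 172 in the other 4 tumors. Ccl21, made by lymph node stroma, was highest in DATS tumor 1, at 262 FPKM, and was at 17.1 in vehicle tumor 2. Besides Cxcl13, Cr2, Fcer2 and Madcam1 were highest in vehicle tumor 2, at 0.442, 0.917 and 0.636 FPKM. Glycam1 was highest in DATS tumor 1, at 2.97 FPKM, and at 0 in vehicle tumor 2, and Ccl19 was highest in DATS tumor 3, at 1.51. Of the 8 genes 1 to 5 were at 0 in each tumor, and 1, Chst4, was at 0 in all. The part of each of these cell types in the T cell values was not tested.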

How the data were processed

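RNA of 6 tumors was sequenced, and the deposited table holds FPKM, 1 value per gene and tumor, per the file headers; per the labels' protocols, total RNA was extracted with a Zymo kit and libraries followed Illumina procedures. Which aligner, counter, build and annotation were used is not given in the sources used here, nor is strand handling, so a gene and its antisense partner may share reads. The filter kept 13631 genes whose mean was at least 1 FPKM, and log2(FPKM + 1) was fitted with limma 3.58.1 in R 4.3.3 (intensity trend, treatment as the only term, two-sided), with Benjamini-Hochberg adjustment over all genes tested at 0.05. Log2 differences understate changes of low genes. Ratios between genes of a tumor, which do not depend on scaling between tumors, were tested by exact permutation. Recovered reads were whole within 1e-06 for 100.0% of the 20891 genes above 0, 763 of them after a common divisor was put back, and the recovery and the fit were checked on simulated data. Symbols of 19 lists matched for 222 of 229, 4 through RefSeq names, by which Dbi was taken in place of Ttn among the muscle markers. The genes and lists were chosen with earlier results of these data known, and motifs with the sequences in view. Genes named from lists were those of highest mean and, for T and NK lists, largest difference, 1 of which is not reported here; Csf1r, Ptprc, Ncr1, Pdcd1, the interleukins, Cma1 and the low lymph node genes were added after values were seen. Plots used Python 3.11.15 and matplotlib 3.10.9.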

Additional observations from a re-analysis of the deposited data

How the results depend on the processing

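Under each alternative run, 0 genes and 0 of the T cell and cytotoxic genes were called: a pseudocount of 0.1, no filter or a filter at 0.1 FPKM, equal totals, quantile normalization, sample weights, limma-voom on recovered reads, a replicate block and leaving out each tumor. Unadjusted p-values under 0.05 numbered 797 genes as reported, 704 by limma-voom, 594 with the replicate block, 1663 with sample weights and 428 to 1217 without 1 tumor; of the group there was 1, without vehicle tumor 1. The lowest adjusted p of a gene of the group over these was 0.600, for Cd4 without vehicle tumor 1. With the replicate block, Cd3e had a log2 difference of -0.05 (adjusted p = 0.993). The correlations of deviations of same-numbered tumors were 0.15, -0.02 and -0.12. Such values cannot show whether same-numbered tumors shared a batch or handling. Signs did not hold. Of 141 alternative values of the log2 differences, 27 changed sign. With sample weights, which gave DATS tumor 2 a weight of 3.52, Cd3e was at 0.20, Cd3g at 0.39, Cd8b at 0.26 and Nkg7 at 0.25. Cd3g, at 0.00 as reported, crossed to the other side at 0.00 with the lower pseudocount and 0.01 by limma-voom, and Cd8a at -0.07 with equal totals. Leaving out 1 tumor gave -0.18 to 1.26 for Cd3d, -0.45 to 0.72 for Cd3e, -0.60 to 0.94 for Cd3g, -0.87 to 0.14 for Cd4, -0.30 to 0.61 for Cd8a, -0.57 to 0.16 for Cd8b, -0.19 to 0.72 for Prf1, -0.72 to 0.22 for Nkg7 and -0.70 to 0.46 for Foxp3, and Gzmb was at -0.60 to -0.07. Gzmb was at -0.85 with the lower pseudocount and -0.96 by limma-voom. For log2 ratios it gave -0.59 to 0.06 for Cd4 to Cd3e, -0.18 to 0.34 for Cd8a to Cd3e, -0.59 to 0.04 for Cd8b to Cd3e, -1.79 to 0.27 for Gzmb to Cd3e, -0.15 to 0.57 for Prf1 to Cd3e, -2.36 to 0.25 for Gzmb to Prf1 and -0.16 to 0.15 for Cd4 to Csf1r. The other 6 ratios kept their sign. With Cd3d in place of Cd3e, added after seeing the data, the ratios of Cd8a and Prf1 turned to -0.29 and -0.26, and no ratio turned with Cd3g. The cause of these changes was not tested. Depth limits Gzmb, on 6 to 68 reads per tumor on its main row.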
